A study of Homo sapiens with 71 samples.

Results

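The 10 annexin genes described here are ANXA1, ANXA2, ANXA3, ANXA4, ANXA5, ANXA6, ANXA7, ANXA9, ANXA11 and ANXA13. They were taken as the rows with these symbols, 10 of the 31012 complete entries of the table held here and of the 12425 entries with counts. Gene expression was measured in HepG2, an established human hepatoma line, after 48 hours of exposure to river water. The medium contained 75% filtered water taken at 1 of 16 sites in the Great Lakes basin, or purified water in the same proportion. The sites carry the codes BRWI, CRMI, CROH, FRWI, GRMI, GRNY, IHIN, JRMI, LRMN, MAWI, MIWI, MROH, ORNY, RRMI, SRMI and VROH, with 4 libraries each (3 for MIWI), and the 8 purified water libraries (CTRL) are the controls. All dishes came from combined flasks of 1 line, were precultured for 72 hours, and shared serum, penicillin, streptomycin and the antimicrobial normocin in the exposure medium. The labels call the dishes biological replicates, so the p-values measure the spread between dishes of 1 culture exposed to 1 water sample per site.

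Annexins are cytosolic proteins that bind acidic phospholipids when calcium rises, through a conserved core of repeats, and that differ in their amino termini. They take part in membrane repair, vesicle fusion, endocytosis and the organisation of the cortical cytoskeleton. In liver they are known from bile duct and endothelial cells as well as from hepatocytes and liver tumours. In bulk RNA, fewer cells of a type and less RNA per cell cannot be told apart.

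The assay was TempO-Seq, in which pairs of adjacent probes are joined on their target RNA and read by sequencing. Levels are CPM (counts per M counts, M standing for mega) after TMM scaling, and they compare libraries, not genes, because probes differ in efficiency. Total counts in the part of the table held here were 8.18 to 14.5 M in the controls. With the exception of VROH 2, at 8840 counts, site libraries held 2.91 to 9.89 M. The libraries VROH 2, CRMI 1 and SRMI 3 stand apart from the others of their sites, so each test is given over all 71 libraries and over the 68 others. Log2 changes are site minus controls with the standard error of the fit, and a change was called at a Benjamini-Hochberg adjusted p under 0.05 over all tested features. All site comparisons share the same controls. Of 12 hepatocyte and HepG2 markers all were tested, with a summed level of 159474 to 220949 CPM in the controls. All 6 squamous epithelial markers fell under the count filter, and together they reached at most 0.206 CPM in a control library.

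All 10 annexins passed the filter on low counts. In the controls ANXA2, the annexin that pairs with S100A10 at the plasma membrane and binds plasminogen there, lay between 1288 and 1555 CPM with a median of 1473. ANXA5, which binds exposed phosphatidylserine and is the reagent of apoptosis assays, lay between 353 and 511 CPM. ANXA4, an annexin of secretory epithelia, lay between 139.7 and 299.6 CPM. Members at intermediate control levels were ANXA11, which links RNA granules to lysosomes, at 39.6 to 60.0; ANXA7, known from vesicle fusion, at 35.7 to 45.2; and ANXA6, an endosomal annexin with a duplicated core, at 26.6 to 44.0. ANXA3 lay between 5.83 and 8.21 CPM, ANXA13 between 4.19 and 6.71, ANXA1 between 1.35 and 3.82 and ANXA9 between 1.73 and 3.06. ANXA1 rested on 11 to 33 counts per control library and ANXA9 on 15 to 27, so the counting error of both is large.

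On GRCh38, ANXA1 lies on chromosome 9 (73151757 to 73170393, plus strand) and ANXA2 on chromosome 15 (60347134 to 60402883, minus strand). ANXA4 lies on chromosome 2 (69644425 to 69827100, plus strand), ANXA5 on chromosome 4 (121667955 to 121697113, minus strand) and ANXA6 on chromosome 5 (151100712 to 151157882, minus strand). The promoters of ANXA1 and ANXA2 are shown because they differ in composition. The RefSeq promoter windows (GRCh38.p14, from 250 bases before to 50 after the start) have a GC content of 37.7% for ANXA1 and 76.0% for ANXA2, around a median of 58.7% over all windows. The windows of ANXA4 (78.0% and 72.0%) and ANXA5 (76.3%) are GC-rich as well. A link between promoter composition and level was not tested. The 250 bases before each start follow, 5′ to 3′ on the gene's strand, chr9:73151615-73151864 (plus) for ANXA1 and chr15:60397987-60398236 (minus) for ANXA2, with TATA boxes (TATAAA) and an AP-1 motif (TGANTCA) in capitals.
ANXA1: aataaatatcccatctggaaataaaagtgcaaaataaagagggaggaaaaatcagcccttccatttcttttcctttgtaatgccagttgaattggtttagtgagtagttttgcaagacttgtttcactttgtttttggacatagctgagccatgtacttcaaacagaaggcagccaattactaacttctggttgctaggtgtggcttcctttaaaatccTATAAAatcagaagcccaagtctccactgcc
ANXA2: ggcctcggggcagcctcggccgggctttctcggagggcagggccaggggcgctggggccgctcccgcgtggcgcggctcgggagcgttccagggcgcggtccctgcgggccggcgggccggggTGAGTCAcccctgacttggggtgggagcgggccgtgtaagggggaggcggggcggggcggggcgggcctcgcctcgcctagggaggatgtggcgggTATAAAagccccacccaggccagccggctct
Both promoters hold TATAAA with its first base at position -31 from the start, a string present on either strand in 11.5% of 35116 promoter windows. The AP-1 letters stand at position -127 in ANXA2 alone among the 13 windows of the 9 members searched, and TGANTCA is in 7.71% of all windows. The TEAD letters GGAATG, in 14.0% of windows, were in none of the members' windows. These matches are letters in a window, not binding sites.

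Averaged over the 16 sites, no annexin was called against the controls. By edgeR's quasi-likelihood test 0 of 10 were called at the mean of sites over 71 libraries, where 0.0576% of all tested features were called, and 0 of 10 over 68 libraries, where 0.174% were. At an unadjusted p under 0.05 stood 1 of 10 members over 71 libraries, beside 2.33% of all features, and 2 of 10 over 68, beside 4.86%. DESeq2 also called 0. The members' changes at the mean of sites ran from -0.22 (ANXA2) to 0.30 (ANXA13), with a median of -0.05 beside -0.02 over all features. Over 68 libraries ANXA2 was at -0.20 ± 0.05 with an adjusted p of 0.0623, and ANXA13 at 0.28 ± 0.12 with an adjusted p of 0.835. An F test between the 16 sites called ANXA1, ANXA2 and ANXA13 over 71 libraries, 3 of 10 members beside 29.8% of all features. Over 68 libraries it also called ANXA5 and ANXA6, 5 of 10 members beside 49.8% of all features, so the members' shares stand near those of all features.

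Single waters were called against the controls for 4 of 160 pairs of a member and a site over 71 libraries, beside 0.883% of all feature and site pairs. The 4 were ANXA13 at LRMN, RRMI and GRNY and ANXA1 at CRMI, all higher than the controls. Over 68 libraries 20 of 160 pairs were called, beside 4.09% of all pairs. They were 6 rises of ANXA13, 2 rises and 1 fall of ANXA1, 7 falls of ANXA2, 2 falls of ANXA6, and 1 fall each of ANXA4 and ANXA5. The count rests on VROH 2 more than on any other library: leaving it out alone gave 14 pairs, and leaving out CRMI 1, SRMI 3 or ORNY 4 alone gave 7 in each case. Libraries of a site lay wholly above all 8 controls for 7 pairs and wholly below them for 13 over 71 libraries, beside 2.07% and 2.22% of all pairs; over 68 libraries there were 7 and 14, beside 2.5% and 2.74%.

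**Figure D1:**
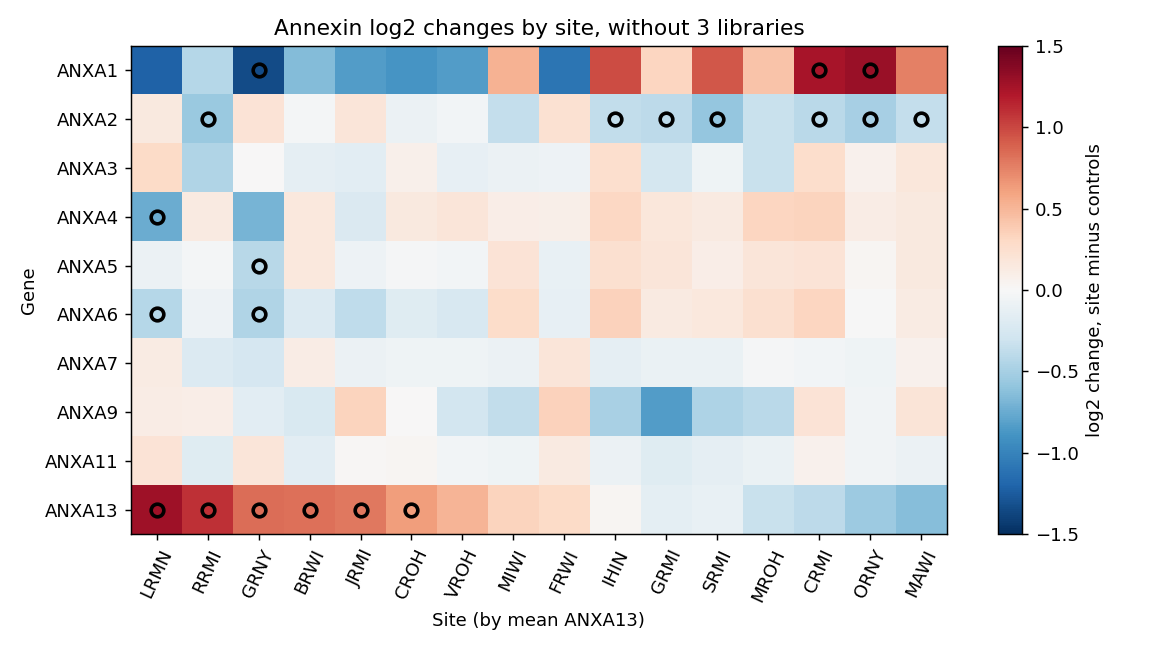
Log2 change of each annexin (rows) at each site (columns, ordered by mean ANXA13) against the controls, from the fit over 68 libraries; red is higher, blue lower, and an open circle marks a change called at an adjusted p under 0.05. The 20 circles lie in the rows of ANXA1, ANXA2, ANXA4, ANXA5, ANXA6 and ANXA13, and the rows of ANXA3, ANXA7, ANXA9 and ANXA11 hold none.

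ANXA13, an annexin known from intestinal and renal epithelia that carries a myristoyl group and is regarded as close to the ancestor of the vertebrate family, showed the clearest rises. In the controls its level had a lowest value of 4.19, a median of 5.06 and a highest value of 6.71 CPM, from 37 to 94 counts per library. At LRMN the 4 libraries were at 14.5, 10.6, 13.0 and 13.0 CPM. At RRMI they were at 8.03, 14.9, 10.1 and 13.0 CPM. At GRNY they were at 9.59, 8.56, 11.3 and 8.33 CPM. Every library of these 3 sites lay above every control. The mean was 12.8 ± 1.62 CPM at LRMN, 11.5 ± 3.05 at RRMI and 9.45 ± 1.37 at GRNY (SD, n = 4), beside 5.30 ± 0.94 in the controls (SD, n = 8). Over 71 libraries the log2 change was 1.26 ± 0.19 at LRMN (adjusted p = 8.69e-06), 1.11 ± 0.19 at RRMI (adjusted p = 0.000109) and 0.84 ± 0.19 at GRNY (adjusted p = 0.0440). Of all features, 2.2% were called higher at LRMN, 0.518% at RRMI and 0.072% at GRNY over 71 libraries, and 9.34%, 1.45% and 4.35% over 68. Over 68 libraries the changes were 1.27 at LRMN (adjusted p = 6.25e-07), 1.10 at RRMI (adjusted p = 1.81e-05) and 0.84 at GRNY (adjusted p = 0.00449). The calls at LRMN and RRMI stood under every alternative run, with 71 and with 68 libraries. The call at GRNY stood under every alternative over 68 libraries, but over 71 it was lost under 13 alternatives, among them leaving out any 1 GRNY library (adjusted p up to 0.144).

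At BRWI ANXA13 was at 9.89, 10.3, 8.25 and 9.20 CPM, and at JRMI at 9.47, 10.6, 8.77 and 8.11 CPM. These libraries too lay wholly above the controls. Both rises were called over 68 libraries only, 0.82 ± 0.19 at BRWI (adjusted p = 0.0117) and 0.79 ± 0.19 at JRMI (adjusted p = 0.00987), where 0.622% and 1.78% of all features were called higher. Leaving out BRWI 2 or JRMI 2 ended them (adjusted p = 0.0776 and 0.0640). At CROH the libraries were at 8.43, 11.2, 6.08 and 7.55 CPM, and CROH 3 lay inside the control range. The log2 change there was 0.62 ± 0.19 over 68 libraries (adjusted p = 0.0236, 4.32% of features called higher), and it was lost without CROH 2 (adjusted p = 0.144). At the other end, MAWI was at 2.77, 3.67, 2.48 and 4.18 CPM, with every library under every control. ORNY was at 2.56, 3.99, 3.09 and 5.10 CPM, with 3 of its 4 libraries under every control. Neither was called (-0.64 ± 0.21, adjusted p = 0.0647, and -0.54 ± 0.20, adjusted p = 0.113, over 68 libraries). From MAWI to LRMN the site means of ANXA13 spanned a ratio of 3.90, and the F test between sites gave 11.9 over 71 libraries (adjusted p = 1.75e-10) and 13.5 over 68 (adjusted p = 9.83e-12). Neighbours in the order of the 17 group means overlapped in all 16 cases.

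Some markers of hepatocytes and of other cells were also called at some of the sites where ANXA13 was called. The hepatocyte and HepG2 markers summed to 210842 to 236185 CPM at LRMN. Of the 12, none was called between sites over 71 libraries and 7 were over 68, with 6 site pairs higher and 5 lower. Over 68 libraries the apolipoprotein genes APOA1, APOA2 and APOB were called higher at LRMN, as were the fibrinogen genes FGB and FGG. Their rises ran from 0.29 (FGB) to 0.50 (APOB) on the log2 scale, whereas FGB and FGG were called lower at RRMI (-0.35 and -0.59). At CROH APOB was called higher (0.52) and the fibrinogen gene FGA lower (-0.71). None of the 12 was called at GRNY, BRWI or JRMI. APOA2 was called lower at CRMI (-0.43) and ORNY (-0.33), where ANXA13 was not called. The 7 immune markers, of which 4 were tested, summed to 1545 to 2168 CPM in the controls, 2823 to 3925 at LRMN, 2236 to 2724 at RRMI and 2218 to 3365 at GRNY. Nearly all of this was LYZ, the lysozyme gene, at a mean of 1651 CPM in the controls and 3326 at LRMN, while PTPRC, the pan-leukocyte marker, had 0 counts in every library. LYZ was called higher at 6 sites and lower at 4 over 68 libraries. CD68, a macrophage lysosomal marker, was lower at LRMN over 68 libraries (-0.56 ± 0.18, adjusted p = 0.0191), so the immune markers did not move one way. The 3 bile duct markers summed to 2630 to 3363 CPM at LRMN and 2465 to 3541 in the controls. Those of fibroblasts, 7 in all with 1 tested, summed to 4.90 to 8.44 CPM at LRMN and 4.05 to 6.52 in the controls. The 5 endothelial markers, 2 of them tested, summed to 1.55 to 4.39 CPM at LRMN and 2.17 to 3.99 in the controls, and KDR had 0 counts. Within them CDH5, the endothelial cadherin, fell at LRMN by 2.01 ± 0.56 over 71 libraries (adjusted p = 0.0235) and by 2.00 ± 0.54 over 68 (adjusted p = 0.00666). It rested on 5 to 14 counts per control library and 1 or 2 per LRMN library. These counts are not scaled for depth, and their counting error is large. The part of any of these markers in the ANXA13 result was not tested.

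**Figure D2:**
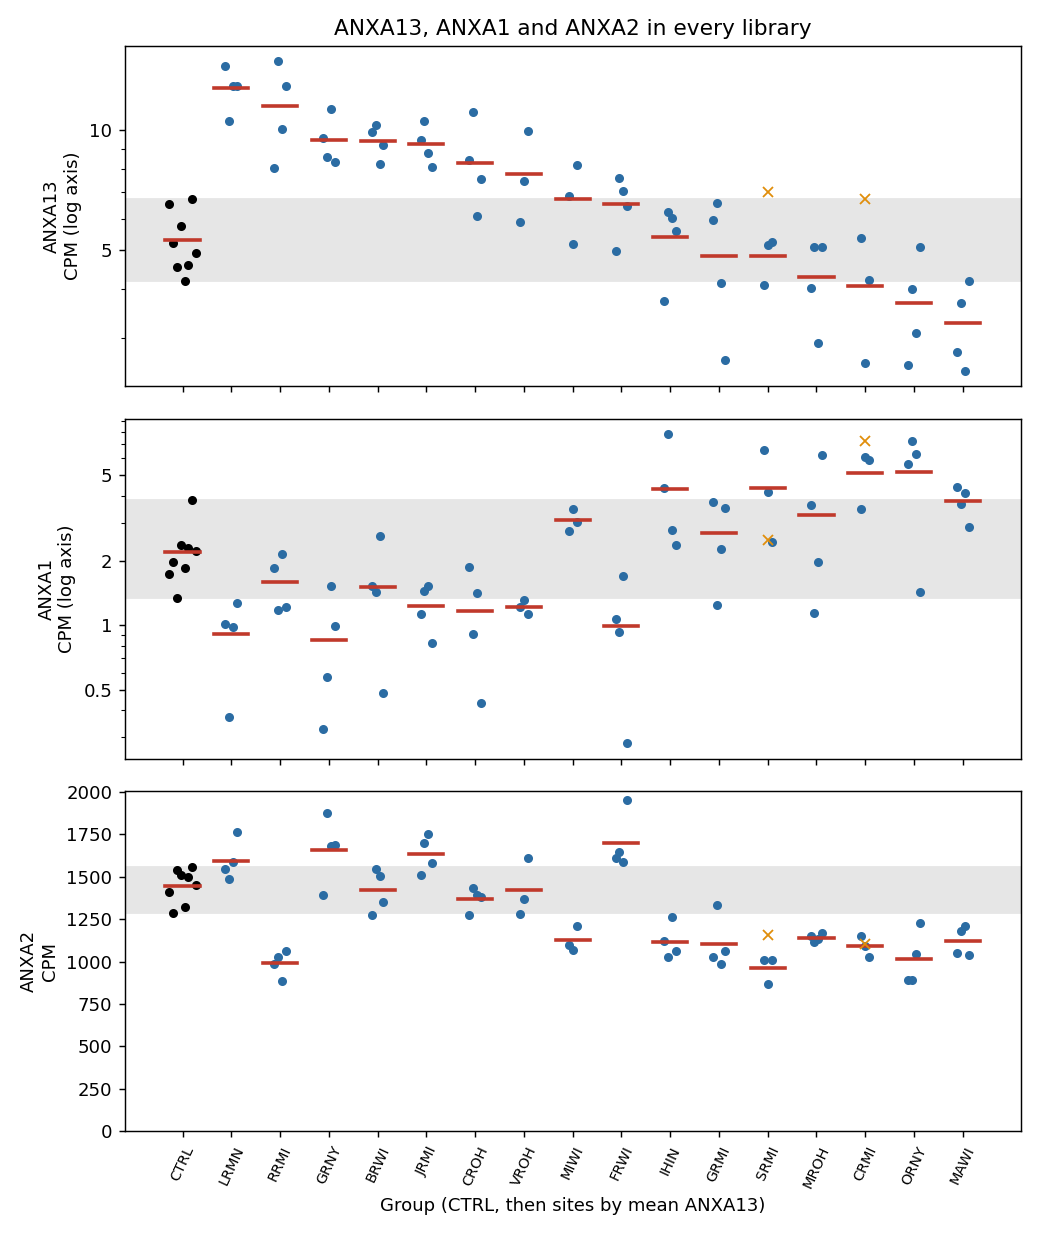
CPM of ANXA13 and ANXA1 (log axes) and ANXA2 (linear axis from 0) in every library but VROH 2, by group, with the controls first and sites ordered by mean ANXA13. Dots are libraries, crosses are CRMI 1 and SRMI 3, red bars are group means without the crosses and VROH 2, and the grey band is the control range. ANXA13 lies above the band at LRMN, RRMI, GRNY, BRWI and JRMI, and ANXA2 lies under it at 8 sites.

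ANXA1, the annexin induced by glucocorticoids that signals through formyl peptide receptors to end inflammation, had the widest relative range of the 10, with few counts. In the controls its lowest value was 1.35, its median 2.10 and its highest 3.82 CPM. At CRMI the libraries were at 7.24, 3.47, 6.07 and 5.88 CPM, the first of them CRMI 1. At ORNY they were at 5.66, 7.23, 6.29 and 1.43 CPM. In each case 3 of 4 libraries lay above every control, and the remaining one lay within the control range. At GRNY they were at 0.327, 0.570, 1.53 and 0.992 CPM, from 3, 3, 12 and 5 counts. At LRMN they were at 1.01, 0.372, 0.979 and 1.27 CPM, from 6, 2, 4 and 9 counts. All LRMN libraries and 3 of 4 at GRNY lay under every control. Site means ran from 0.854 CPM at GRNY to 5.15 at ORNY, a ratio of 6.03, and the F test between sites gave 8.57 over 71 libraries (adjusted p = 3.64e-08) and 7.93 over 68 (adjusted p = 5.59e-08).

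Against the controls, the rise of ANXA1 at CRMI was 1.39 ± 0.34 over 71 libraries (adjusted p = 0.0122, with 2.02% of features called higher) and 1.24 ± 0.40 over 68 (adjusted p = 0.0411, with 2.96%). Without CRMI 1 alone it was not called (adjusted p = 0.0730). The rise at ORNY was 1.30 ± 0.32 over 68 libraries (adjusted p = 0.0108, 1.45% called higher), and it was lost without ORNY 1, ORNY 2 or ORNY 3 (adjusted p up to 0.0987). The fall at GRNY was -1.34 ± 0.44 over 68 libraries (adjusted p = 0.0425, 4.81% called lower) and was lost under 12 of 17 alternatives. The change at LRMN was -1.21 ± 0.45, with an adjusted p of 0.0524. Each ANXA1 call was thus ended by leaving out 1 library of its own site, whereas the difference between sites was called under every alternative.

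ANXA2 was called lower at 7 sites in the fit over 68 libraries. Over 71 libraries the changes at these 7 sites were of like size, -0.55 to -0.37, but edgeR called 0 of them (adjusted p from 0.275 to 0.762); 3 had an unadjusted p under 0.05, and DESeq2 called 4. In the controls its lowest value was 1288, its median 1473 and its highest 1555 CPM. At RRMI the libraries were at 984, 1028, 884 and 1062 CPM. At ORNY they were at 892, 893, 1047 and 1227 CPM. At SRMI they were at 1009.8, 866, 1157 and 1011 CPM, the third being SRMI 3. No library of these 3 sites reached the lowest control. The same held at CRMI (1029 to 1151 CPM), IHIN (1027 to 1263), MAWI (1036 to 1210.4), MIWI (1068 to 1212) and MROH (1118 to 1166). FRWI went the other way, with 1609.7, 1644, 1586 and 1949.6 CPM, all above the controls. Over 68 libraries the log2 change was -0.58 ± 0.09 at SRMI (adjusted p = 8.94e-05), -0.56 ± 0.08 at RRMI (adjusted p = 4.05e-06) and -0.50 ± 0.08 at ORNY (adjusted p = 0.000235). These 3 calls stood under every alternative run over 68 libraries, where 0.853%, 1.42% and 2.65% of all features were called lower at those sites.

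Falls of ANXA2 from -0.41 to -0.36 were called over 68 libraries at CRMI, GRMI, IHIN and MAWI, with adjusted p from 0.00492 to 0.0215. At these 4 sites 5.05%, 0.405%, 0.419% and 2.56% of all features were called lower. Each was lost without 1 library of its own site: CRMI 4 (adjusted p = 0.0639), MAWI 1 (0.0547), GRMI 1 or GRMI 4 (up to 0.0720), and IHIN 1, IHIN 2 or IHIN 4 (up to 0.141). The calls at GRMI and IHIN were also lost with the replicate number as a block (adjusted p = 0.163 and 0.0792). GRMI was at 1024, 1336, 988 and 1063 CPM, with GRMI 2 inside the control range. MROH and MIWI had changes of -0.33 ± 0.08 and -0.36 ± 0.09 (adjusted p = 0.0900 and 0.181). FRWI was at 0.23 ± 0.08 (adjusted p = 0.0920). The standard error of the ANXA2 change at RRMI was 0.22 over 71 libraries, 0.09 without VROH 2 alone and 0.08 over 68 libraries. In VROH 2 ANXA2 had 1 count (19.6 CPM), beside 1277 to 1611 CPM in the other VROH libraries. The F between sites was 2.54 over 71 libraries (adjusted p = 0.0231; 0.148 with no filter and 0.0875 with the replicate number as a block, which end the call) and 17.8 over 68 (adjusted p = 6.80e-14). In the order of levels, 15 of 16 neighbours overlapped. The exception lay between CROH, whose lowest library was at 1275 CPM, and MROH, whose highest was at 1166. The means of 8 groups including the controls stood above this step and those of 9 sites below it. Single libraries still overlapped across the step: GRMI 2, of a site below it, was at 1336 CPM.

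ANXA1 and ANXA2 ran opposite to each other over the groups. Over the 17 group means of log2 CPM from 68 libraries, which share libraries, scaling and the same controls, ANXA1 correlated with ANXA2 at -0.83 and with ANXA13 at -0.83. Of 6906 features, 396 correlated with ANXA1 under -0.9, so opposition to ANXA1 of this size was common. Among the 9 sites under the step in ANXA2, all but RRMI had an ANXA1 mean above that of the controls, from 2.70 CPM at GRMI to 5.15 at ORNY. Among the 7 sites above the step, all had an ANXA1 mean under that of the controls, from 0.854 CPM at GRNY to 1.51 at BRWI. RRMI departed from this: ANXA2 was low at a mean of 989 CPM, ANXA1 was at 1.60 CPM, and ANXA13 was high at 11.5. The correlation of ANXA2 with ANXA13 was 0.57.

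**Figure D3:**
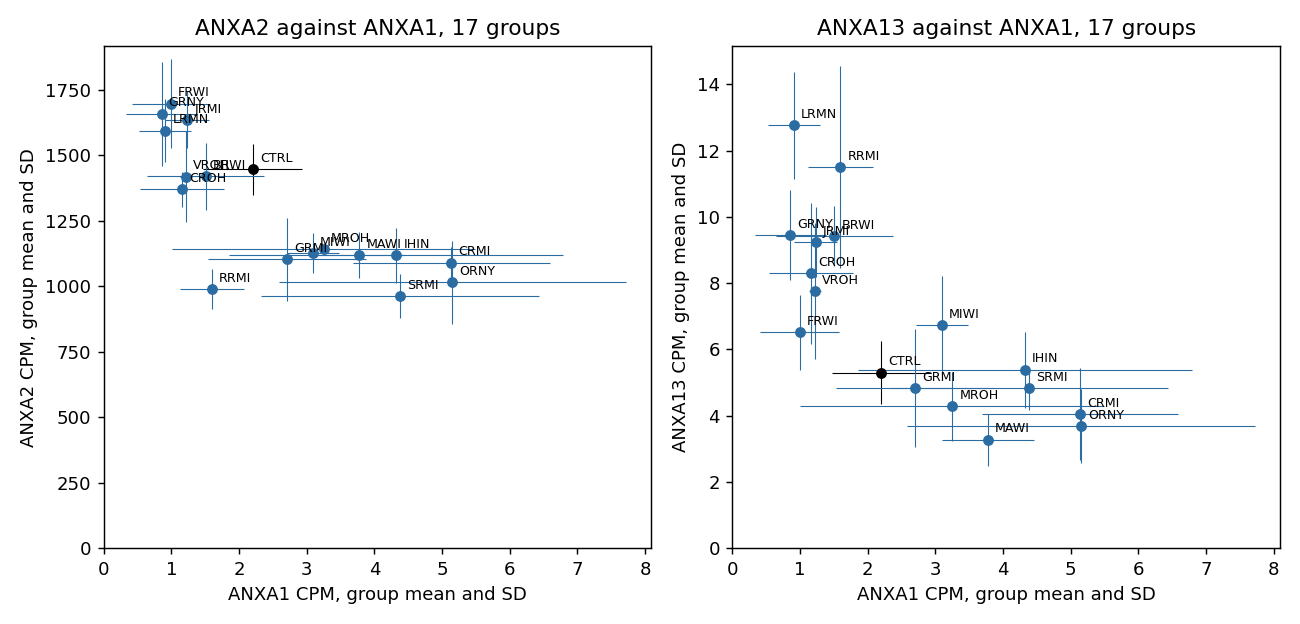
Group means with SD bars of ANXA2 (left) and ANXA13 (right) against ANXA1, in CPM over 68 libraries, for 17 groups, with the controls in black. Groups with ANXA1 under 2 CPM have ANXA2 at 1371 CPM or more except RRMI, which has 989, and the ANXA13 means fall from 12.8 at LRMN to 3.28 at MAWI.

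The group means of ANXA4, ANXA5 and ANXA6 ran with those of ANXA1. Over the 17 groups ANXA5 correlated with ANXA4 at 0.81 and with ANXA6 at 0.84, and ANXA1 with ANXA4, ANXA5 and ANXA6 at 0.63, 0.75 and 0.87. ANXA5 had control values with a median of 422 CPM, and at GRNY the libraries were at 350.0, 299.7, 387 and 258 CPM, 3 of them under every control. ANXA6 had a control median of 37.0 CPM, with 34.1, 18.4, 29.2 and 25.0 CPM at GRNY and 33.8, 21.7, 33.1 and 21.4 at LRMN, so both sites overlapped the controls. Over 68 libraries the log2 change of ANXA5 at GRNY was -0.42 ± 0.12 (adjusted p = 0.0257). That of ANXA6 was -0.46 ± 0.13 at GRNY (adjusted p = 0.0230) and -0.42 ± 0.13 at LRMN (adjusted p = 0.0205). At GRNY 4.81% and at LRMN 8.2% of all features were called lower. None of these changes was called over 71 libraries, and each was lost over 68 without 1 library of its site (adjusted p of 0.101 without GRNY 4 for ANXA5, 0.171 without GRNY 2 and 0.152 without LRMN 2 for ANXA6). ANXA6 was highest at IHIN, at 47.3, 46.1, 47.7 and 46.4 CPM, each above every control, with a change of 0.35 ± 0.13 that was not called (adjusted p = 0.147). Between sites over 68 libraries, F was 2.79 for ANXA5 (adjusted p = 0.00764) and 5.78 for ANXA6 (adjusted p = 4.45e-06).

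For ANXA4 the SD of log2 CPM was 0.48 between single libraries within groups and 0.32 between site means. The first SD was also the larger for ANXA3, ANXA5, ANXA7, ANXA9 and ANXA11. Means of 3 or 4 libraries spread less than single libraries, so this order cannot show that the sites were alike. ANXA5 was called between sites over 68 libraries. The F test of ANXA4 between sites missed the threshold (adjusted p = 0.0526 over 68 libraries). At LRMN the libraries were at 173, 153, 191 and 68.3 CPM, all within or under the control range of 139.7 to 299.6. The change there was -0.75 ± 0.27 over 68 libraries (adjusted p = 0.0428), and 10 of 17 alternatives ended the call, with an adjusted p of 0.220 without LRMN 4. Elsewhere low values stood beside ordinary ones of the same site: GRNY was at 248, 48.1, 83.0 and 226 CPM, and JRMI at 266, 57.5, 232 and 286.

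In CRMI 1 and SRMI 3 the members did not move as one. In CRMI 1, ANXA4 was at 4.70 CPM beside a mean of 308 in the other CRMI libraries, ANXA5 at 66.4 beside 500.3, ANXA6 at 4.29 beside 45.9 and ANXA7 at 10.1 beside 40.0. In SRMI 3, ANXA4 was at 96.9 CPM beside 268, ANXA5 at 126 beside 461, ANXA6 at 12.2 beside 40.8 and ANXA7 at 18.3 beside 38.3. The same 4 genes were thus under all others of their site in both libraries. ANXA11 went the other way in both, at 75.8 beside 53.5 CPM in CRMI 1 and at 86.7 beside 46.8 in SRMI 3. ANXA9, a member that lacks working calcium sites, was at 4.07 CPM in SRMI 3 beside 1.36 to 1.66 in the rest of the site. ANXA2 was within the range of the others in CRMI 1 and above it in SRMI 3. What sets these libraries apart was not tested.

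**Figure D4:**
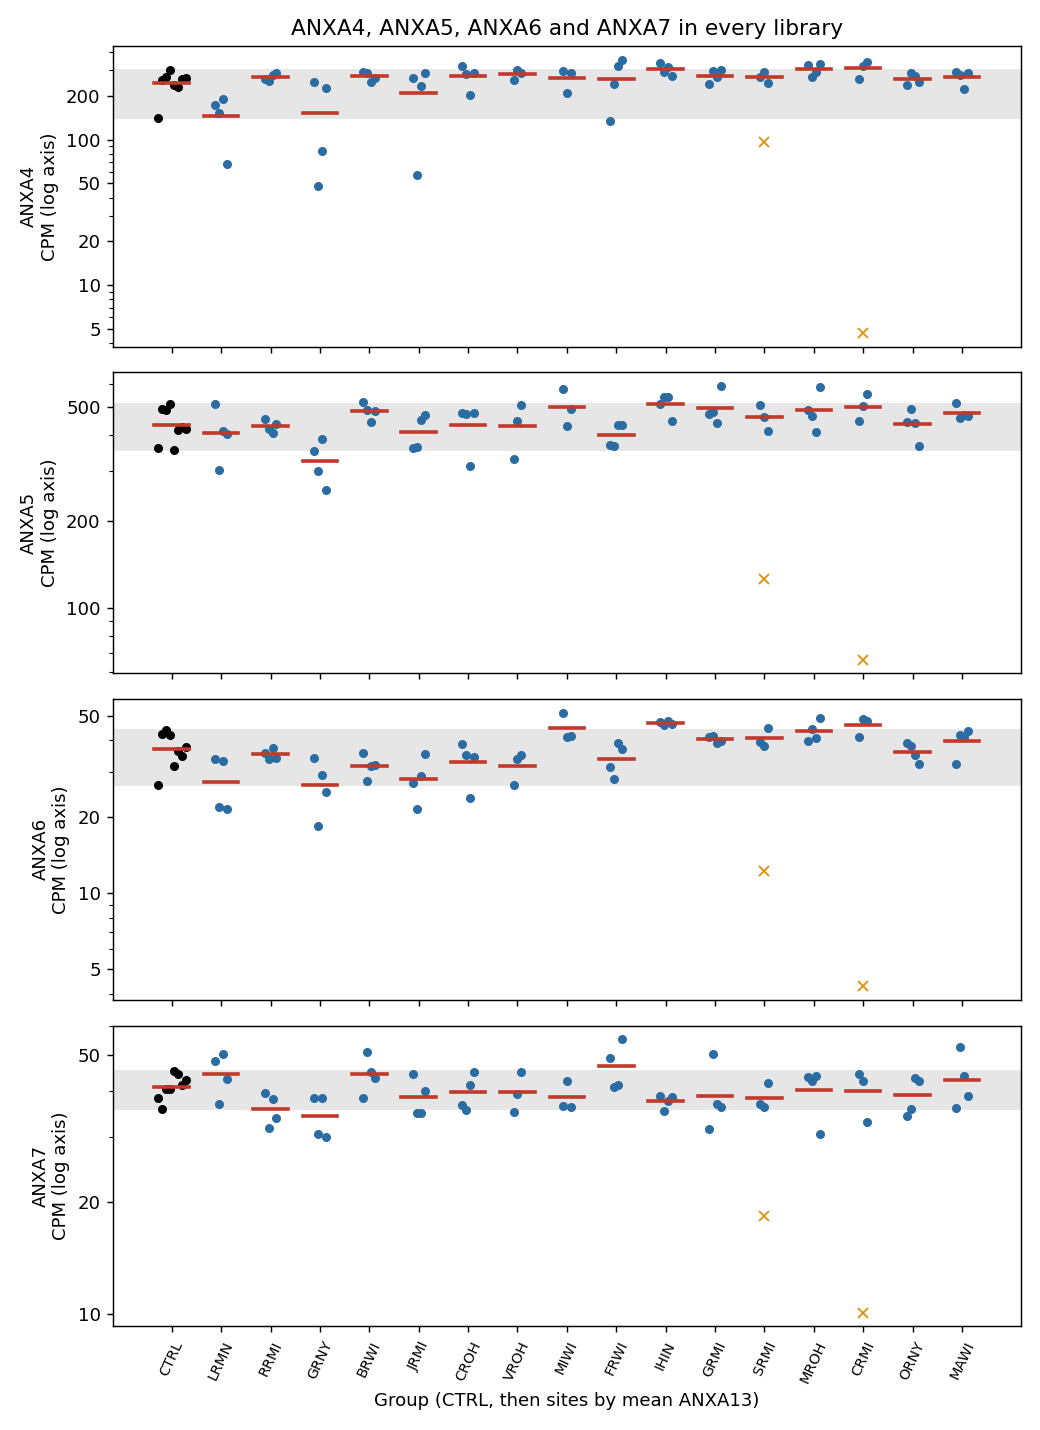
CPM of ANXA4, ANXA5, ANXA6 and ANXA7 (log axes) in every library but VROH 2, by group, in the order and with the symbols of the plot of ANXA13, ANXA1 and ANXA2. The crosses, CRMI 1 and SRMI 3, lie under all other libraries of their sites in each panel, and ANXA4 also has low libraries at LRMN, GRNY and JRMI.

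The remaining members, ANXA3, ANXA7, ANXA9 and ANXA11, were called in no comparison by edgeR over 71 or 68 libraries. Between sites their adjusted p over 68 libraries was 0.0797 for ANXA3, 0.133 for ANXA7, 0.188 for ANXA9 and 0.0744 for ANXA11. ANXA3, a calcium-dependent phospholipid binder studied in liver tumours, was lowest at RRMI, at 4.94, 4.98, 5.59 and 4.66 CPM, each under the lowest control (-0.46 ± 0.18, adjusted p = 0.213). It was highest at LRMN, with a mean of 8.44 CPM (0.29 ± 0.18, adjusted p = 0.253). ANXA9 was lowest at GRMI, at 1.55, 0.936, 1.04 and 1.18 CPM from 3 to 7 counts, again under every control (-0.84 ± 0.35, adjusted p = 0.234). ANXA7 and ANXA11 had the narrowest ranges, with ratios between the highest and lowest site means of 1.36 and 1.30. ANXA11 ran from 45.2 CPM at GRMI to 58.9 at LRMN, and ANXA7 from 34.3 CPM at GRNY to 46.7 at FRWI.

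Other annexin entries held few counts. ANXA8 had 26 counts in all libraries together, ANXA10 had 3 and ANXA8L1 had 0. The counts assigned to the pseudogene entries ANXA2P1, ANXA2P2 and ANXA2P3 together amounted to 0.140% of the ANXA2 counts. How many reads of these copies were assigned to ANXA2 cannot be seen, because probe positions were not given. ANXA2R, named as a receptor of ANXA2, lay between 1.53 and 3.46 CPM in the controls and was called at no site, as was ANXA2P1.

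By rule, the features most like each member over the 17 group means were named for the members called both between sites and at a site. For ANXA13 they included COQ8A, a coenzyme Q biosynthesis kinase (r = 0.93), and DPYSL2, a cytoskeletal regulator (0.93). DPYSL2 ran from 747 CPM at MAWI to 2001 at LRMN, with 1237 in the controls. The feature most opposed to ANXA13 was CHCHD10, a mitochondrial intermembrane protein (-0.95), at 56.9 CPM at LRMN and 91.4 at MAWI. For ANXA1 the most alike were MRPS34, FTSJ3 and EXOSC8 (all 0.97), which act in mitochondrial ribosomes, ribosomal RNA maturation and the RNA exosome, and the most opposed was PLOD1, a collagen lysyl hydroxylase (-0.97). The pattern of ANXA1 was a common one: 417 of 6906 features correlated with it above 0.9 and 396 under -0.9. Those of ANXA13 and ANXA2 were less so, with 21 and 46 features above 0.9 and 11 and 6 under -0.9. For ANXA2 the closest were BTBD11 (0.96), PALM2-AKAP2 (0.95) and MXRA7 (0.95), and the most opposed ODAM (-0.93). For ANXA5 they were APPBP2 (0.97), NECAP2 (0.96) and CRLS1 (0.96), with CALM2, a calmodulin gene, most opposed (-0.93). For ANXA6 they were PSMD8, ITPK1 and CLGN (0.95, 0.95 and 0.94), with COG1 most opposed (-0.94).

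The genes that work beside annexins were read from 5 lists, by counts and named members. Of the 30 genes of annexin binding and membrane repair, 24 were tested, and the F test between sites called 7 over 71 libraries and 12 over 68, beside 29.8% and 49.8% of all features. Their site pairs were called 0 higher and 4 lower over 71 libraries, and 6 higher and 11 lower over 68, which is 1.04% and 4.43% of the list's pairs beside 0.883% and 4.09% of all pairs. Their median change at the mean of sites was -0.04, beside -0.02 over all features. DYSF, dysferlin, which patches damaged membrane together with annexins, lay between 20.1 and 31.6 CPM in the controls, with a median of 26.2. At LRMN its libraries were at 11.3, 2.42, 6.86 and 10.6 CPM, and at CROH at 17.2, 11.7, 5.37 and 11.2 CPM. All 8 were under every control, as were all DYSF values at FRWI, GRNY and JRMI. At IHIN all DYSF values, from 36.3 to 43.2 CPM, lay above every control, but DYSF was called higher at no site. DYSF fell by 1.69 ± 0.30 at LRMN (adjusted p = 0.000209) and by 1.17 ± 0.29 at CROH (adjusted p = 0.0186) on the log2 scale over 71 libraries. Over 68 libraries the values were -1.67 and -1.19, and DYSF was also called lower at FRWI (-1.08 ± 0.28, adjusted p = 0.0278) and GRNY (-0.86 ± 0.27, adjusted p = 0.0346). Of all features 2.81% were called lower at LRMN and 1.31% at CROH over 71 libraries. Over 68 the shares were 8.2% at LRMN, 5.93% at CROH, 1.11% at FRWI and 4.81% at GRNY.

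GCA, grancalcin, a calcium-binding protein described in neutrophils, lay between 31.9 and 42.5 CPM in the controls, with a median of 37.2. It was at 24.1, 19.5, 22.3 and 24.9 CPM at LRMN and at 23.8, 19.7, 16.7 and 22.6 at CROH, again under every control. GCA fell by 0.70 ± 0.18 at LRMN (adjusted p = 0.0144) and by 0.84 ± 0.18 at CROH (adjusted p = 0.00799) over 71 libraries, and by 0.69 and 0.85 over 68. Over 68 libraries GCA was also called lower at FRWI (-0.59 ± 0.14, adjusted p = 0.0218) and RRMI (-0.49 ± 0.14, adjusted p = 0.0385). At these 2 sites 1.11% and 1.42% of all features were called lower. AHNAK, the giant scaffold that the ANXA2 and S100A10 complex recruits, was at 47.1, 102.4, 59.0 and 65.9 CPM at LRMN, and its control range was 34.4 to 55.9. Its change there was 0.70 ± 0.18 over 68 libraries (adjusted p = 0.00491), with LRMN 1 inside the control range. At IHIN AHNAK lay between 27.7 and 29.7 CPM, under every control, and was not called. EHD4, an ATPase of endocytic recycling, was called over 68 libraries lower at CRMI (-0.65 ± 0.17, adjusted p = 0.0129) and higher at GRNY (0.41 ± 0.14, adjusted p = 0.0427).

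**Figure D5:**
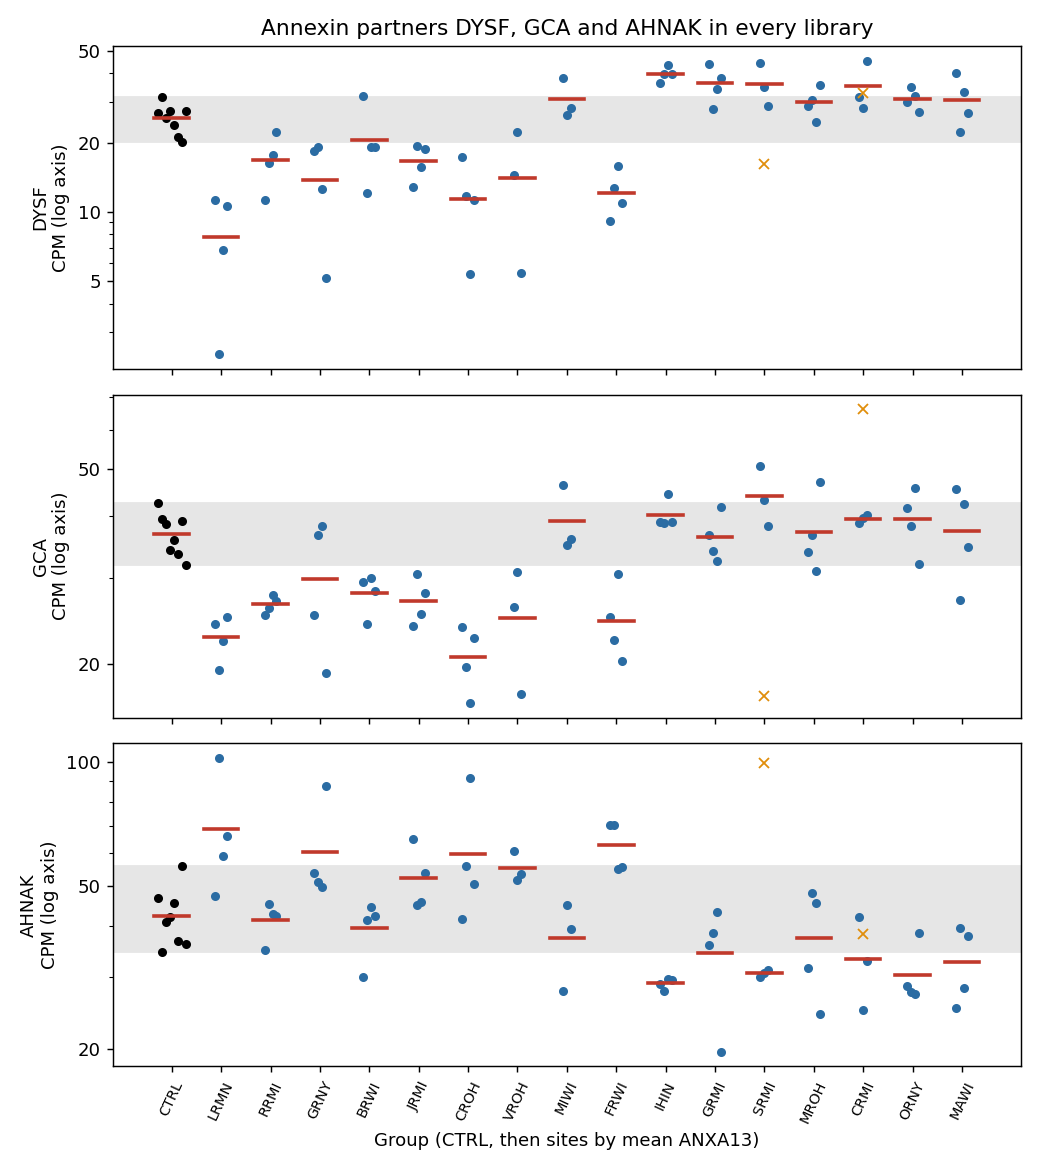
CPM (log axes) of DYSF, GCA and AHNAK in every library but VROH 2, by group, in the order and with the symbols of the plot of ANXA13, ANXA1 and ANXA2. DYSF lies under the control band at LRMN, CROH, FRWI, GRNY and JRMI, and above it at IHIN. GCA lies under it at LRMN, CROH, BRWI, FRWI, JRMI, RRMI and VROH. AHNAK reaches 102.4 CPM in LRMN 2 and 99.4 in SRMI 3, a cross, and lies under the band at IHIN.

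The other lists are read beside the same shares, 29.8% and 49.8% of all features called between sites over 71 and 68 libraries. Of 12 ANXA1 receptors and phospholipases A2, 3 were tested, all of them phospholipases, so no ANXA1 receptor was tested. Between sites 1 was called over 71 libraries, PLA2G4B, and 2 over 68, PLA2G4B and PLA2G12A. Over 68 libraries PLA2G12A fell at GRNY (-0.71 ± 0.21, adjusted p = 0.0246) and LRMN (-0.70 ± 0.21, adjusted p = 0.0154). PLA2G2A fell at GRNY (-1.58 ± 0.53, adjusted p = 0.0481) and PLA2G4B at LRMN (-0.50 ± 0.17, adjusted p = 0.0403). These 4 are 8.33% of the list's pairs beside 4.09% of all. Over 71 libraries 0 of the list's pairs were called. The 6 genes of the plasminogen system, whose activation ANXA2 assists, had 4 tested and 2 called between sites in both fits. PLGRKT, a plasminogen receptor, fell by 1.50 ± 0.43 at LRMN (adjusted p = 0.0292), from a control range of 2.93 to 5.42 CPM to 2.19, 1.12, 1.22 and 1.41 CPM; over 68 libraries it fell there by 1.49 ± 0.38 and also at CROH, by 1.44 ± 0.38. PLG, plasminogen itself, was called between sites (adjusted p = 0.0261) and at no single site. Of 27 other calcium-dependent phospholipid binders, such as copines, 11 were tested and 3 were called between sites over 71 libraries, CPNE3, DOC2A and CPNE8. CPNE8 was lower at CRMI over 71 libraries (-1.35 ± 0.33, adjusted p = 0.0123, with 1.73% of features called lower), where CRMI 1 had 1 count. Over 68 libraries, CRMI 1 left out, that call was lost (-0.79 ± 0.29, adjusted p = 0.0754). In that fit 2 were called between sites, and CPNE3 was lower at ORNY (-0.48 ± 0.13, adjusted p = 0.0181). Of 23 YAP target genes, a programme that includes cytoskeletal regulators, 17 were tested and 13 were called between sites over 71 libraries, with 4 site pairs higher and 16 lower, or 7.35% of the list's pairs beside 0.883% of all. Over 68 libraries 15 of 16 were called between sites, with 25 pairs higher and 30 lower, or 21.5% beside 4.09%. ANKRD1 was called lower at 6 sites over 71 libraries, most at MAWI (-1.68 ± 0.26, adjusted p = 0.000108), SRMI (-1.61 ± 0.26, adjusted p = 8.67e-05) and ORNY (-1.53 ± 0.25, adjusted p = 0.000796), where 0.158%, 0.317% and 0.144% of features were called lower. Over 68 libraries it was called lower at 9 sites and higher at FRWI and LRMN. The ANXA13 means at those 9 sites lay on both sides of the control mean of 5.30 CPM, from 3.28 at MAWI to 11.5 at RRMI. Those 9 sites are also the 9 that lay under the step in ANXA2. FRWI and LRMN had ANXA2 means of 1697 and 1595 CPM, beside 1446 in the controls. A link between ANKRD1 and ANXA2 was not tested.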

How the data were processed

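TempO-Seq profiles of 71 HepG2 libraries in 17 groups were used. Values are expected counts (estimated counts per gene) that the authors deposited under a name calling them normalized. Salmon and the build GRCh38 are named per the submitters' processing notes; not given in the sources used here: versions, probe positions and the step from probes to genes. Of the values under 20 in a library, 93.4% were whole multiples of 1 read within a tolerance of 0.02 (median over libraries; lowest 91.6%), so they were rounded and used as counts. The table is held in part, up to the symbol RAI14, and genes with later symbols, the S100 partners among them, were not analysed here. Site codes linked columns to labels. Library numbers are those of the columns, which for MIWI and GRMI differ in part from the label numbers. The growth protocol describes more control dishes than the 8 used here.

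The quasi-likelihood test of edgeR 4.0.16 was run in R 4.3.3 with TMM scaling, filterByExpr at a minimum count of 10 and 1 mean per group (common biological coefficient of variation 0.257, 54 residual degrees of freedom). Of all entries, 6947 were tested over 71 libraries and 6916 without VROH 2, CRMI 1 and SRMI 3. Each site and the unweighted mean of the 16 sites were compared with the controls, and differences among sites were tested by F. Standard errors come from the F value, and errors of CPM are SD over libraries. Likeness is Pearson's r over 17 group means of log2 CPM (prior count 2, 68 libraries); for each member called between sites and at a site, the 3 highest features and the lowest are named, except 1 that is not reported here. All 10 members are reported, and from each partner list at most 4 genes, those with the smallest adjusted p between sites, are named. Alternatives were DESeq2 1.42.0, RLE scaling, no filter, the replicate number as a block, each site fitted with the controls alone, and leaving out each library. Those run within the fit over 68 libraries were added after seeing the data. The fit was tested on simulated data. The members, the lists and the plan were chosen with earlier results of these data known. Gene positions are from the GENCODE annotation on GRCh38, promoters from RefSeq on GRCh38.p14; no sequence is printed for ANXA13. Without molecular identifiers, reads need not be independent molecules.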

Additional observations from a re-analysis of the deposited data

Results flagged for a closer look

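Levels in CPM that stand apart within their group were found for 14 of 160 combinations of a member and a group, where chance gives about 1 in 20. In VROH 2 they were ANXA1 and ANXA11, both at 0, and ANXA4 at 39.1; this library had 8840 counts. In CRMI 1 it was ANXA6 at 4.29, and in SRMI 3 it was ANXA9 at 4.07. The other 9 were in libraries with no such mark. In the controls, ANXA1 was high in CTRL 7 at 3.82 and ANXA4 low in CTRL 1 at 139.7. ANXA2 was high in FRWI 4 at 1949.6. At MAWI, ANXA4 was low in MAWI 3 at 221 and ANXA5 high in MAWI 1 at 517. ANXA5 was low in CROH 3 at 310.5 and ANXA7 low in MROH 4 at 30.6. ANXA11 was high in JRMI 1 at 62.0 and in RRMI 2 at 55.9.

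The sites differed from one another in the F test for 3 members over 71 libraries, with F of 8.57 for ANXA1, 2.54 for ANXA2 and 11.9 for ANXA13. Over 68 libraries F was 7.93 for ANXA1, 17.8 for ANXA2, 2.79 for ANXA5, 5.78 for ANXA6 and 13.5 for ANXA13.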

How the results depend on the processing

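Over 71 libraries the count of called member and site pairs, 4, was 16 with each site and the controls fitted alone, 10 with DESeq2, 14 without VROH 2 and 20 without VROH 2, CRMI 1 and SRMI 3; leaving out 1 library in turn gave 3 to 14. The count of members called between sites, 3, was 5 without the 3 libraries and 3 to 4 with 1 library left out; the ANXA2 call among them was lost with no filter (adjusted p = 0.148) and with the block (0.0875). The 0 members called at the mean of sites stayed 0 with each of 71 libraries left out. Within the fit over 68 libraries, the 20 pairs were 16 to 24 and the 5 members between sites 5 to 7 with 1 library left out. Of the 4 calls over 71 libraries 2 were kept under every alternative, and of the 20 over 68 libraries 6 were: ANXA13 at LRMN, RRMI and GRNY, and ANXA2 at RRMI, SRMI and ORNY.

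With the replicate number as a block, 2 pairs were called over 71 libraries and 13 over 68. Deviations of dishes with the same number in different groups had a median correlation of 0.017, and those with other numbers -0.0024. No shared deviation was thus seen, but a median near 0 cannot decide whether the numbers pair the dishes.

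Signs at the mean of sites, none of them called, turned for ANXA1 with the block (0.110; -0.12 to 0.10 with 1 library left out), for ANXA4 with RLE scaling (0.000815), the block (0.00721), without VROH 2 (0.000684) and without the 3 libraries (0.0427; -0.0948 to 0.0382), for ANXA5 without VROH 2 (0.00160) and without the 3 libraries (0.0426; -0.0525 to 0.0247), for ANXA7 with the block (0.0115) and for ANXA11 with the block (0.0857; -0.0525 to 0.0292). The causes were not tested. Depth limits ANXA1 and ANXA9 most, with 11 to 33 and 15 to 27 counts per control library, and VROH 2 gives no usable level for any member.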
